A study of Mus musculus with 12 samples.

Results

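Mandibular fibrochondrocytes were compared between a line with a truncated NG2/CSPG4 ectodomain and its control line while both were cultured without serum. These serum starvation libraries, 3 of NG2|EDmut cells and 3 of control cells, are 6 of the 12 RNA-seq libraries of the study. They were chosen by their labels alone, and the comparison was described across all genes. The other 6 libraries hold the same lines with serum. They entered the same fit, and so bear on its filter and its estimate of spread. They also show where the difference between the lines changed between the culture conditions.

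Both lines descend from cells of the condylar cartilage of C57BL/6J mouse pups, into which a retrovirus brought hTERT, a telomerase gene that keeps cells dividing, together with GFP. The control line was grown from a single cell picked for fast growth and keeps the whole NG2 ectodomain. The NG2|EDmut line was made from that control line with CRISPR/Cas9 and is again 1 clone, in which the ectodomain is truncated within its type VI collagen binding region. For serum starvation the cells were held in Opti-MEM without serum, whereas serum-supplemented cells grew in αMEM with heat-inactivated fetal bovine serum, and both media had L-glutamine, penicillin and Plasmocin added. The basal medium therefore changed together with serum, and their effects cannot be told apart. The sources used here do not state how long starvation lasted. The methods speak of 3 biological replicates but do not say whether these were separate thawings, so the p-values measure the spread between these samples, of 1 clone against 1 clone.

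NG2, the product of Cspg4, is a transmembrane chondroitin sulfate proteoglycan found on pericytes, glial progenitors and immature cartilage cells. Its large ectodomain binds type VI collagen, a collagen of the matrix around the cell, as well as integrin α3β1, galectin-3, and the growth factors PDGF-AA and FGF2, and its short tail links to kinases and scaffold proteins inside the cell. In cartilage the proteoglycan is known for tying the pericellular matrix to the cytoskeleton. Serum supplies cultured cells with growth factors, adhesive proteins and lipids, and its removal is a common way to study what the cells make and sense by themselves.

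The edited region is shown first because the gene-level counts do not resolve it. Cspg4 lies on chromosome 9 (chr9:56865033-56899870, plus strand, GRCm38), and its GENCODE transcript has 10 exons, 8121 bases and 6984 coding bases. The primers with which the study screened clones both match coding exon 3 (chr9:56885235-56888786, 3552 bases) and span 1893 bases, whereas its RT-qPCR primers both match coding exon 2 and span 128 bases, upstream of the screened stretch. The 4 primers are given 5′ to 3′ in lower case, with no part in capitals.
NG2Trun-Col6 forward, chr9:56886525-56886544, plus strand: acctctgaccagctgatgct
NG2Trun-Col6 reverse, chr9:56888398-56888417, minus strand: tccttgaggaaccacgagac
NG2/CSPG4 forward, chr9:56883559-56883578, plus strand: tccttcttcggggagaacca
NG2/CSPG4 reverse, chr9:56883667-56883686, minus strand: tggtcatcttggcctgctgc

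Cspg4 itself was at 96.7, 53.9 and 102 CPM in starved control cells and at 202, 232 and 251 CPM in starved NG2|EDmut cells, where CPM are estimated counts scaled to a common library size by TMM. The groups did not overlap, and Cspg4 was higher in the mutant line by 1.44 on the log2 scale (SE 0.29, adjusted p = 0.00214, edgeR). Because the counts cover the whole gene, they do not check the truncation. Total estimated counts of the 6 libraries ranged from 60277881 to 75709776. Ribosomal RNA took 0.637% to 4.82% of them, most in control replicate 2. Mitochondrial transcripts took 2.79% to 5.18% in control and 2.25% to 2.38% in NG2|EDmut libraries. The first principal component of the 6 libraries (65.4% of the variance) separated the lines, and control replicates 1 and 2 lay at opposite ends of the second (12.1%).

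The labelled cell type was checked against marker genes. All 10 fibroblast and mesenchyme markers exceeded 1 CPM in both lines, with summed levels of 49600 to 58670 CPM in control and 50270 to 54350 CPM in mutant libraries. Col1a1 and Col1a2, which did not pass the test, made up most of these sums. Of the 10 markers 5 were lower in the mutant line and none was higher. The lower ones were S100a4, Pdgfra, Col3a1, Pdgfrb and Vim, with log2 fold changes from −2.30 for S100a4 to −0.41 for Vim. The 10 chondrocyte markers summed to 151 to 159 CPM in control and 199 to 275 CPM in mutant libraries, and of the 8 tested 1 was higher and 4 lower. Among them the cartilage factor Sox9 was at 49.2, 47.1 and 47.2 CPM in control and 29.1, 35.5 and 33.4 CPM in mutant cells, the link protein gene Hapln1 lay between 62.5 and 69.5 CPM in all 6 libraries, and the type II collagen gene Col2a1 between 9.68 and 15.5 CPM. Col11a2, a type XI collagen chain, rose by 2.51 from 24.1, 15.5 and 22.5 CPM to 88.7, 101.8 and 163 CPM (adjusted p = 0.0361, edgeR). The aggrecan gene Acan stayed under 1 CPM in every library, and Col9a1 and Cnmd were at or near 0. Macrophage markers summed to 84.4 to 120.1 CPM in control and 15.5 to 23.9 CPM in mutant cells. Lysozyme (Lyz2) made up 75.1, 108 and 79.7 CPM of them in control and 16.5, 11.1 and 10.0 CPM in mutant cells. The macrophage markers Ptprc, Adgre1, Itgam, Mrc1, Fcgr1 and Aif1 stayed under 1 CPM in every library. Csf1r, Cd68 and Cd14 lay between 1.38 and 4.46 CPM. Neural markers summed to 59.96 to 86.5 and 207 to 209 CPM, of which the tubulin gene Tubb3 made up 11.5, 15.9 and 18.2 CPM in control and 115, 119 and 126 CPM in mutant cells. Fewer cells of a type and less RNA per cell cannot be told apart in such bulk samples, and the part of these markers in the differences between the lines was not tested.

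Of 29862 genes listed, 18703 passed the filter on low counts and were tested. In NG2|EDmut against control cells under serum starvation, 7111 genes passed the test at an adjusted p under 0.05 in edgeR (38.0% of those tested), 3347 of them higher (17.9%) and 3764 lower (20.1%) in the mutant line. Which direction held more calls depended on the setting, since limma-trend on log2(FPKM + 1) gave 3455 higher and 2674 lower, and the fit without control replicate 1 gave 3190 and 2898. Values of the lines did not overlap for 10624 genes (56.8% of those tested), a share well above that of called genes. Of the 7111 called genes 7063 did not overlap, so a lack of overlap adds little to a call. The median log2 fold change over all tested genes was −0.02. Among called genes the median absolute log2 fold change was 0.97, and 672 genes (3.59% of those tested) differed at least 8-fold, 303 higher and 369 lower.

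The steepest rises included an epithelial transcription factor and genes of bone. Grhl3, a grainyhead factor of surface epithelia, went from 0.278, 0 and 0.939 CPM in control to 23.9, 26.5 and 36.8 CPM in mutant cells, a log2 fold change of 6.12 (SE 0.98, adjusted p = 0.000412, edgeR). Ibsp, bone sialoprotein of mineralized matrix, stood at 34.1, 23.2 and 103 CPM in control and 2001, 2086 and 2818 CPM in mutant cells (log2 fold change 5.43, SE 0.88, adjusted p = 0.000457, edgeR). Control replicate 3 was the highest control library for both, and still far below every mutant library. Slc13a5, a sodium-coupled citrate transporter that bone cells use, was at 23.2, 17.2 and 73.4 CPM in control and 1199, 1265 and 1439 CPM in mutant cells, a rise of 5.10 on the log2 scale. Adgrd1, an adhesion G protein-coupled receptor, rose by 5.85 from 1.75, 1.52 and 3.57 CPM to 119, 128 and 149 CPM. Sdk2, a cell adhesion molecule of the immunoglobulin superfamily known from retinal synapses, rose by 5.67 from 3.39, 1.78 and 9.96 CPM to 216, 266 and 292 CPM. For Ibsp and Adgrd1 DESeq2 gave no adjusted p.

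The steepest falls included those of Adh1, Enpep, Ptn and Mest. Adh1, the alcohol dehydrogenase that oxidizes retinol, was at 38.8, 64.0 and 48.8 CPM in control and 0.831, 0.658 and 0.325 CPM in mutant cells, and fell by 6.39 on the log2 scale (SE 0.35, adjusted p = 1.85e-07, edgeR). Enpep, the aminopeptidase A that trims angiotensin, fell by 6.02 on the log2 scale from 152, 111 and 139 CPM to 2.26, 1.63 and 2.33 CPM. Ptn, the heparin-binding growth factor pleiotrophin, was among the abundant transcripts of the control line at 590.4, 635 and 639 CPM and stood at 13.1, 12.9 and 13.3 CPM in the mutant line. It fell by 5.56 on the log2 scale (SE 0.49, adjusted p = 4.3e-06, edgeR). Mest, an imprinted gene of embryonic growth, fell by 5.37 on the log2 scale, from 411, 480.4 and 433 CPM to 11.4, 10.6 and 9.98 CPM. These 4 genes were picked among called genes without overlap, so the separation of their groups follows from that choice.

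**Figure D1:**
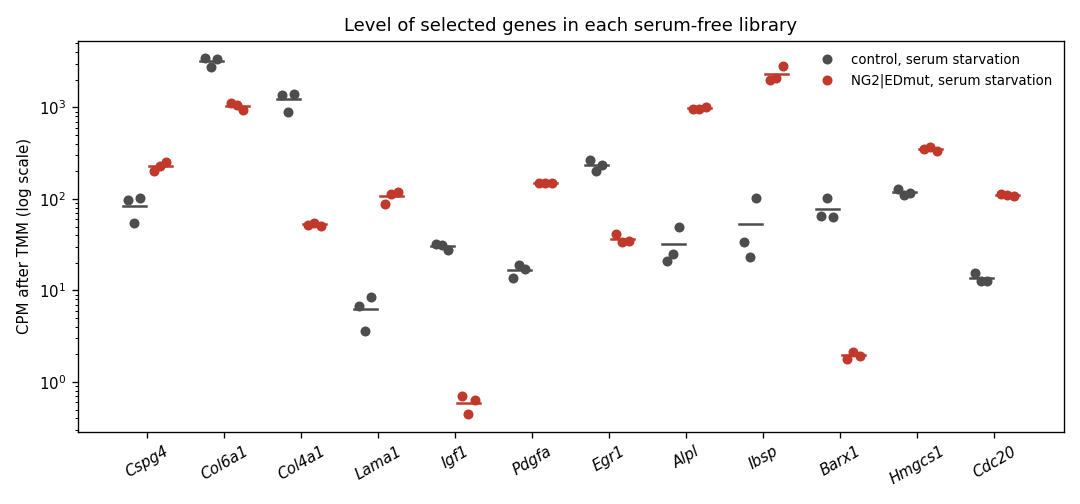
Levels of 12 genes in the 6 serum starvation libraries (CPM after TMM scaling, log axis), with control cells in grey and NG2|EDmut cells in red; each point is 1 library and each line a group mean. The groups do not overlap for any of the 12 genes, as for 7063 of the 7111 called genes. Igf1, Ibsp and Barx1 show the widest gaps, for example 64.4, 103 and 63.1 CPM of Barx1 in control against 1.81, 2.12 and 1.94 CPM in mutant cells.

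Among the genes that encode NG2 and its partners, 5 of 25 tested members were higher and 8 lower in the mutant line, beside 17.9% and 20.1% of all tested genes. Type VI collagen, the ligand whose binding region was truncated, was lower in the starved mutant cells in its α1 and α2 chains. Col6a1 was at 3431, 2796 and 3402 CPM in control and 1107, 1052 and 929 CPM in mutant cells, and fell by 1.64 on the log2 scale (SE 0.20, adjusted p = 5.04e-05, edgeR). Col6a2 fell by 1.43 on the log2 scale, from 2217, 1955 and 2192 CPM to 854, 811 and 696 CPM. The third chain, Col6a3, was at 892, 515 and 832 CPM in control and 368, 454 and 475 CPM in mutant cells, without overlap, yet its log2 fold change of −0.79 missed the threshold (SE 0.30, adjusted p = 0.0591, edgeR).

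The receptors and growth factors that bind NG2 differed in both directions. Itga3, the α3 integrin subunit, fell by 1.48 on the log2 scale from 58.1, 40.8 and 50.4 CPM to 17.7, 18.5 and 17.4 CPM, whereas its partner Itgb1 averaged 728 ± 69.0 CPM in control and 719 ± 17.1 CPM in mutant cells (SD, n = 3 each). Pdgfa, the A chain of platelet-derived growth factor, was higher in every mutant library, with 13.8, 18.9 and 17.2 CPM in control and 148, 150.0 and 151 CPM in mutant cells (log2 fold change 3.17, SE 0.38, adjusted p = 4.63e-05, edgeR). Its receptor Pdgfra moved the other way, from 55.6, 39.8 and 60.4 CPM to 18.5, 20.3 and 23.2 CPM, and fell by 1.33 on the log2 scale. The starved mutant cells thus had more transcript of the ligand and less of its receptor. Fgf2, a mitogen stored on heparan sulfate, fell by 2.54 on the log2 scale from 15.04, 16.1 and 15.8 CPM to 2.24, 2.53 and 3.30 CPM. Mmp14, a membrane protease known to shed the NG2 ectodomain, was at 2245, 1877 and 2343 CPM in control and 1503, 1438 and 1425 CPM in mutant cells and fell by 0.57 on the log2 scale.

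Basement membrane genes were called in both directions. Of 29 tested members 6 were higher and 10 lower (4 higher without NG2|EDmut replicate 1), with a median log2 fold change of −0.21 that ranged from −0.27 to 0.20 over the alternative settings. Col4a1 and Col4a2 encode the chains of the commonest type IV collagen, the sheet-forming collagen of basement membranes. Col4a1 was at 1369, 901 and 1403 CPM in control and 52.5, 54.6 and 50.7 CPM in mutant cells. Col4a2 was at 1067, 725 and 1075 CPM in control and 48.9, 50.004 and 47.8 CPM in mutant cells. The pair fell together, by 4.54 and 4.29 on the log2 scale (SE 0.21 and 0.19, adjusted p = 5.15e-08 for each, edgeR), and control replicate 2 was the lowest control library for both.

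Col4a1 and Col4a2 lie head to head on chromosome 8, and their starts are close enough that windows from 250 bases before to 50 bases after each RefSeq start overlap by 78 bases (chr8:11312777-11312854, GRCm38.p6). These windows are printed because the genes fell together. Each is written 5′ to 3′ on its own gene's strand, and capitals mark the 78 bases that both windows hold.
Col4a1, chr8:11312777-11313076, minus strand: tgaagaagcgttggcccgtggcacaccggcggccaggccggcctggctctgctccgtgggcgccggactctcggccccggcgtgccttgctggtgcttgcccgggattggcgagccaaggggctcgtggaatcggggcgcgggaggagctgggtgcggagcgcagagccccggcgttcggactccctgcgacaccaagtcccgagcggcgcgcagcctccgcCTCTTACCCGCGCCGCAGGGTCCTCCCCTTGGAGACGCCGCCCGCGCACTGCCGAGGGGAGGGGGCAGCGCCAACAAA
Col4a2, chr8:11312555-11312854, plus strand: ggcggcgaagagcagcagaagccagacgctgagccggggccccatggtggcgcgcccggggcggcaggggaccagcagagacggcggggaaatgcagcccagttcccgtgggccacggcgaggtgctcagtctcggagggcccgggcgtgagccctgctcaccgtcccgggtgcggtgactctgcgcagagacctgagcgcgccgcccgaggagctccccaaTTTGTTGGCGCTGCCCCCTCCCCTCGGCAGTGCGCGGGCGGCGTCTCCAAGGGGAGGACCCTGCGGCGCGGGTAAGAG

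Pxdn, Nid2 and Col4a6 were also lower in the mutant cells. Pxdn, peroxidasin, which crosslinks type IV collagen, fell by 3.08 on the log2 scale from 305, 193 and 301 CPM to 34.0, 34.6 and 26.1 CPM. Nid2, nidogen, which bridges laminin and type IV collagen, fell by 2.11 on the log2 scale from 208, 125 and 199 CPM to 43.2, 43.4 and 36.7 CPM. The X-linked chain gene Col4a6 was at 11.99, 6.11 and 13.5 CPM in control and at 0, 0.107 and 0 CPM in mutant cells.

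Lama1, Lamb2 and Col15a1 were higher. Lama1, the laminin α1 chain of early basement membranes, was at 6.76, 3.603 and 8.41 CPM in control and 89.2, 113 and 118 CPM in mutant cells (log2 fold change 4.09, SE 0.61, adjusted p = 0.000253, edgeR). Lamb2, the laminin β2 chain, rose by 1.37 from 195, 117 and 187 CPM to 439.7, 443 and 407 CPM. Col15a1, which anchors basement membranes to the fibrils around them, rose by 4.16 from 8.62, 5.74 and 12.3 CPM to 143, 161 and 173 CPM. All 3 genes were higher in every mutant than in any control library, a separation found in nearly all called genes.

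Fibrillar collagens and the enzymes that process them gave 9 higher and 15 lower among 37 tested members (6 higher without NG2|EDmut replicate 2), with a median log2 fold change of −0.20. The type I collagen genes, by far the most abundant of them, did not pass the test: Col1a1 averaged 21083 ± 1216 CPM in control and 24224 ± 1405 CPM in mutant cells, and Col1a2 at 24887 ± 3347 and 22822 ± 1068 CPM (SD, n = 3 each). Col3a1, the type III chain of soft fibrous matrix, fell by 1.08 on the log2 scale from 4226, 3669 and 4250.2 CPM to 2055, 2092 and 1613 CPM. Col27a1, a fibrillar chain of cartilage, fell by 4.45 on the log2 scale from 20.3, 16.2 and 15.9 CPM to 0.875, 0.927 and 0.585 CPM. Collagen-modifying enzymes were called on both sides. P3h2, a prolyl 3-hydroxylase that acts on type IV collagen, rose by 4.10 from 1.71, 0.742 and 1.44 CPM to 21.5, 20.8 and 25.0 CPM, and the crosslinking enzyme Lox rose by 1.27 from 448, 477 and 411 CPM to 968, 1104 and 1145 CPM. P4ha3, a prolyl 4-hydroxylase subunit, fell by 3.84 on the log2 scale from 108, 111 and 109 CPM to 8.13, 8.77 and 5.94 CPM, and Loxl2, a relative of Lox, fell by 3.19 on the log2 scale from 31.4, 27.5 and 30.1 CPM to 2.32, 3.91 and 3.51 CPM.

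Elastic fibers gave 2 higher and 10 lower of 17 tested members, with a median of −0.95. Fbln5, a fibulin that guides elastin onto microfibrils, fell by 1.97 on the log2 scale from 226, 263 and 253 CPM to 66.2, 62.5 and 60.8 CPM. The latent TGF-β binding proteins moved apart, with Ltbp3 at 326, 228 and 308 CPM in control and 66.3, 65.1 and 57.8 CPM in mutant cells, and Ltbp4 at 47.2, 39.3 and 52.96 CPM in control and 108, 107 and 112 CPM in mutant cells.

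Matricellular proteins and proteoglycans counted 8 higher and 21 lower of 48 tested members, with a median of −0.56. Postn, periostin of tendon, periosteum and periodontal ligament, was at 4479.6, 4606 and 4933 CPM in control and 438, 441 and 349.6 CPM in mutant cells, and fell by 3.51 on the log2 scale (SE 0.23, adjusted p = 6.09e-07, edgeR). Small leucine-rich proteoglycans, which bind collagen fibrils, accounted for several further falls: Fmod, fibromodulin, fell by 2.73 on the log2 scale from 859, 962 and 828 CPM to 142, 137 and 119 CPM. Bgn, biglycan, fell by 1.97 on the log2 scale from 5282, 6112 and 5624 CPM to 1544, 1425 and 1362 CPM. Decorin, of the same family, did not follow, since Dcn rose by 1.48 from 48.4, 81.8 and 47.0 CPM to 172, 169.9 and 152 CPM. Tnc, tenascin-C, a modular glycoprotein of remodelling matrix, rose by 2.16 from 581, 425 and 655 CPM to 2235, 2656 and 2534 CPM. Sparc, a collagen-binding glycoprotein of bone, had the largest gain in absolute level shown here, from 7822, 10007 and 9641 CPM to 17448, 16782 and 18621 CPM, and rose by 0.94 on the log2 scale.

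Of 51 tested matrix proteases and their inhibitors, 6 were higher and 20 lower, with a median of −0.31. Mmp13, the collagenase of hypertrophic cartilage and bone, fell by 4.89 on the log2 scale from 82.5, 78.4 and 76.3 CPM to 3.43, 1.97 and 2.61 CPM. Mmp2, a gelatinase, fell by 1.83 on the log2 scale from 4443, 4104 and 4779 CPM to 1315, 1231 and 1197 CPM. Tissue inhibitors of metalloproteinases did not move as 1 group. Timp1 fell by 2.34 on the log2 scale from 185, 259.9 and 166 CPM to 39.7, 38.9 and 42.4 CPM, and Timp2 fell by 1.46 on the log2 scale from 3894, 3627 and 4173 CPM to 1468, 1387 and 1387 CPM. Timp3, the member that binds to matrix, rose by 1.66 from 594, 572 and 779.8 CPM to 2039.8, 2103 and 2003 CPM. Adamts18, an orphan protease of the ADAMTS family, rose by 5.45 from 0.153, 0.230 and 1.31 CPM to 21.4, 25.1 and 28.0 CPM.

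**Figure D2:**
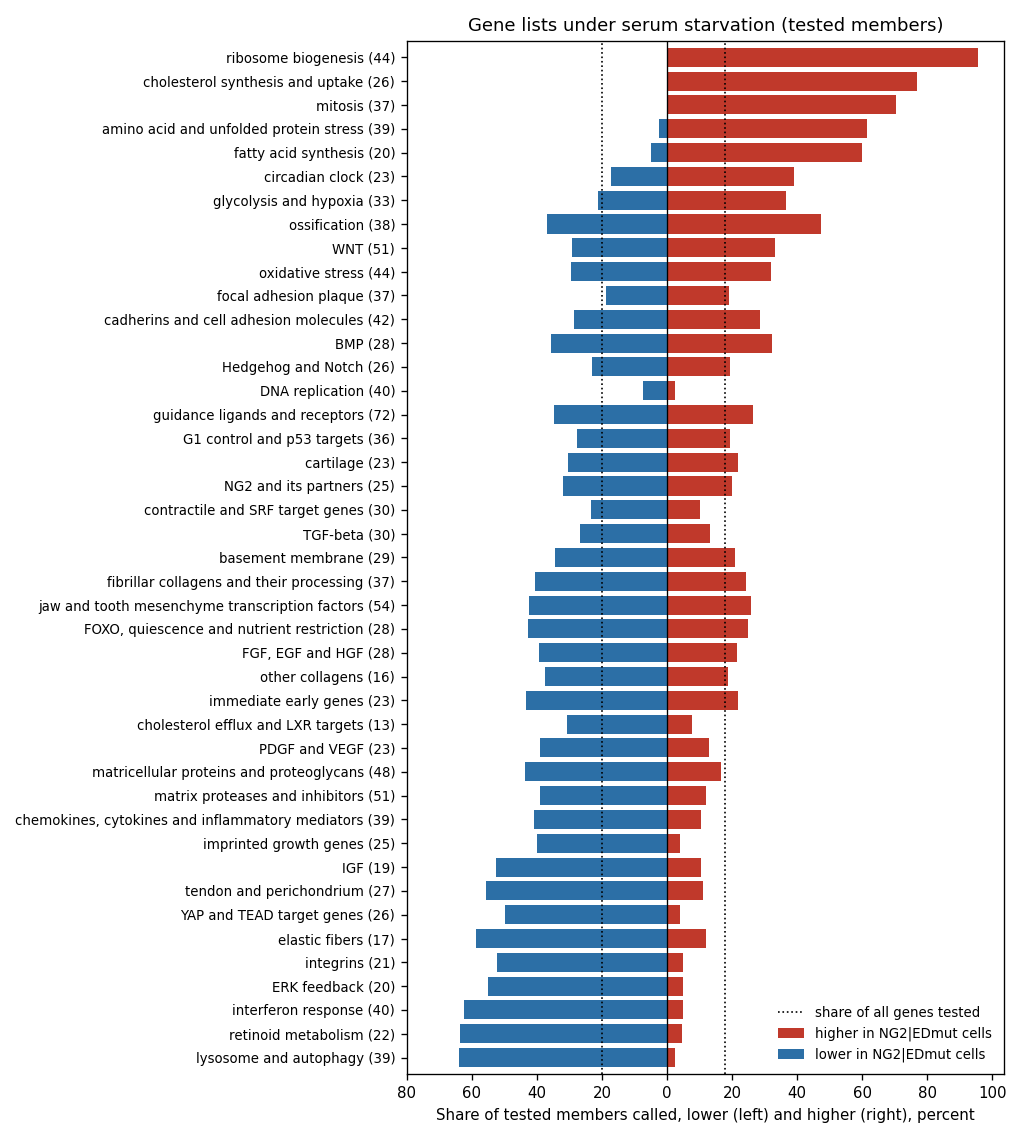
Share of the tested members of each gene list shown that passed the test under serum starvation, higher in NG2|EDmut cells to the right (red) and lower to the left (blue), in percent; dotted lines mark the shares over all tested genes, 17.9% higher and 20.1% lower. Ribosome biogenesis, with 42 of 44 members higher, and lysosome and autophagy, with 25 of 39 members lower, extend far beyond these lines.

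Integrins, the receptors for matrix proteins, counted 1 higher and 11 lower of 21 tested (7 lower without NG2|EDmut replicate 1 and on the FPKM scale), with a median of −0.64. The single member that rose was Itga10, the α chain of a collagen receptor of chondrocytes, from 45.3, 25.3 and 37.3 CPM to 116, 129 and 148 CPM (log2 fold change 1.86, SE 0.21, adjusted p = 2.88e-05, edgeR). Itgb5, a β chain of vitronectin receptors, fell by 1.38 on the log2 scale from 1091, 1061 and 1109 CPM to 442, 407 and 405 CPM. Itga8, the partner of β1 in a receptor for nephronectin, fell by 3.57 on the log2 scale from 37.2, 28.9 and 38.6 CPM to 3.22, 3.41 and 2.17 CPM.

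Cadherins and other cell adhesion molecules were balanced, with 12 higher and 12 lower of 42 tested and a median of −0.01. Dchs1, a giant protocadherin of planar cell polarity, rose by 4.54 from 5.69, 3.003 and 10.4 CPM to 134, 158 and 153 CPM. Among protocadherins of the γ cluster, Pcdhga9 fell by 5.86 on the log2 scale from 55.0, 93.8 and 74.3 CPM to 1.20, 1.57 and 1.07 CPM, but these genes share exons, so that the split of reads among them is uncertain. At focal adhesions, where integrins meet actin, 7 members were higher and 7 lower of 37 tested (4 lower without control replicate 1), or 18.9% each way, close to the shares over all tested genes. Vcl, vinculin, rose by 1.60 from 378, 159 and 359.6 CPM to 864, 958 and 900.3 CPM, with control replicate 2 lowest. Cass4, a scaffold of the same CAS family as p130Cas, rose by 3.42 from 1.85, 1.91 and 1.98 CPM to 19.97, 20.5 and 20.99 CPM.

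Some regulators of the GTPase Rac, which drives membrane protrusion, rose. Chn2, a Rac GTPase-activating chimaerin, was at 0.723, 0.777 and 1.97 CPM in control and 27.7, 30.2 and 38.0 CPM in mutant cells (log2 fold change 4.78, SE 0.35, adjusted p = 1.14e-06, edgeR). Vav2, an exchange factor that loads Rac with GTP, rose by 1.65 from 21.7, 16.8 and 22.5 CPM to 59.2, 66.1 and 65.2 CPM. Contractile genes and targets of the transcription factor SRF gave 3 higher and 7 lower of 30 tested (12 lower with the 6 serum-free libraries fitted alone). These were 10.0% and 23.3%, beside 17.9% and 20.1% of all tested genes. Acta2, smooth muscle actin, averaged 1385 ± 169 CPM in control and 815 ± 194 CPM in mutant cells (SD, n = 3 each) and did not pass the test (adjusted p = 0.149, edgeR).

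In the IGF axis 2 of 19 tested members were higher (1 without NG2|EDmut replicate 2) and 10 lower, with a median of −1.22. Igf1, the ligand, was at 32.6, 31.2 and 28.0 CPM in control and 0.700, 0.443 and 0.637 CPM in mutant cells, and fell by 5.68 on the log2 scale (SE 0.61, adjusted p = 2.15e-05, edgeR). Pappa2, a protease that frees IGF from binding proteins, fell by 4.98 on the log2 scale from 102, 66.5 and 102 CPM to 2.40, 3.51 and 2.65 CPM. Igfbp4, one of those binding proteins, fell by 2.22 on the log2 scale from 443, 641 and 529 CPM to 123, 109.7 and 113 CPM. The receptor Igf1r averaged 81.0 ± 15.8 CPM in control and 86.9 ± 5.54 CPM in mutant cells (SD, n = 3 each), and its groups overlapped.

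In the FGF, EGF and HGF axes 6 of 28 tested members were higher and 11 lower (7 lower on the FPKM scale), with a median of −0.46. Egfr, the receptor for EGF and TGF-α, was at 126, 94.4 and 126 CPM in control and 3.76, 3.82 and 4.03 CPM in mutant cells, and fell by 4.90 on the log2 scale (SE 0.26, adjusted p = 1.38e-07, edgeR). Fgfr2, a receptor of skeletal growth, rose by 1.51 from 121, 108 and 125 CPM to 331, 348 and 333 CPM, and its ligand Fgf10 rose by 2.35 from 2.56, 2.49 and 2.38 CPM to 12.4, 11.3 and 14.0 CPM. Of the PDGF and VEGF axis 3 of 23 tested members were higher (6 without control serum replicate 1) and 9 lower. Angpt1, the angiopoietin that signals from perivascular cells to endothelium, fell by 3.24 on the log2 scale from 18.4, 18.9 and 21.9 CPM to 1.997, 2.47 and 1.81 CPM. Nrp2, a coreceptor for VEGF and semaphorins, rose by 2.24 and was at 297, 192 and 327 CPM in control and 1195, 1352 and 1317 CPM in mutant cells.

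WNT signaling, which drives bone formation, was called on both sides, with 17 higher and 15 lower of 51 tested members. Tcf7, a nuclear factor that acts with β-catenin, rose by 4.02 from 24.1, 27.3 and 33.7 CPM to 450.2, 450.3 and 484 CPM (SE 0.18, adjusted p = 5.15e-08, edgeR), and Ctnnb1, the β-catenin gene, rose by 1.11 from 622, 579 and 669 CPM to 1350.3, 1341 and 1354 CPM. The ligand Wnt7b rose by 3.67 from 3.51, 3.02 and 3.70 CPM to 41.9, 40.9 and 47.1 CPM. Targets that dampen the pathway rose as well: Axin2 was at 5.65, 6.31 and 7.87 CPM in control and 26.4, 27.5 and 26.4 CPM in mutant cells, and the ligase gene Rnf43 at 1.71, 1.43 and 1.61 CPM and 9.62, 9.40 and 8.93 CPM. The receptor genes Fzd2 and Lrp5 fell, Fzd2 from 152, 185 and 165 CPM to 43.9, 44.5 and 39.8 CPM and Lrp5 from 119, 84.6 and 121 CPM to 30.8, 27.7 and 27.4 CPM, by 1.97 and 1.92 on the log2 scale. Lrp4, a receptor for the WNT inhibitor sclerostin, rose by 3.49 from 40.9, 22.3 and 44.9 CPM to 378, 432 and 408 CPM. Dkk3, a secreted protein of the Dickkopf family, fell by 2.83 on the log2 scale from 681, 624 and 748 CPM to 113, 100.3 and 76.3 CPM.

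Among BMP genes 9 of 28 tested members were higher and 10 lower, and the bone-inducing ligands moved apart. Bmp2 rose by 1.95 from 14.1, 14.4 and 14.2 CPM to 56.9, 54.3 and 53.7 CPM, whereas Bmp4 fell by 1.76 on the log2 scale from 55.9, 62.6 and 58.7 CPM to 17.7, 16.8 and 17.8 CPM. Bambi, a decoy receptor, rose by 2.66 from 5.45, 5.21 and 6.44 CPM to 35.0, 33.8 and 39.6 CPM. Of 30 tested TGF-β genes 4 were higher (7 without control serum replicate 1) and 8 lower. In the main fit 13.3% were higher and 26.7% lower, beside 17.9% and 20.1% of all tested genes. The share called in either direction was thus close to the 38.0% of all tested genes. Lrrc32, which presents latent TGF-β at the cell surface, fell by 4.25 on the log2 scale from 53.2, 53.2 and 63.0 CPM to 3.35, 2.71 and 2.81 CPM, and the ligand gene Tgfb3 fell by 1.41 on the log2 scale from 125, 135 and 133 CPM to 52.95, 49.1 and 46.4 CPM.

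Hedgehog and Notch genes gave 5 higher and 6 lower of 26 tested (19.2% and 23.1%), close to the 17.9% and 20.1% of all tested genes. Ihh, Indian hedgehog of the growth zones of cartilage, was at 0.264, 0.141 and 0.205 CPM in control and 6.43, 6.66 and 7.77 CPM in mutant cells. Ptch1, its receptor and a target of the pathway, rose by 3.06 from 17.2, 12.5 and 22.1 CPM to 122, 143 and 168 CPM. Gas1, a coreceptor for hedgehog ligands, fell by 2.72 on the log2 scale from 171, 223 and 187 CPM to 36.6, 27.3 and 24.2 CPM. Ligand and receptor were thus both higher, and the coreceptor lower, in the mutant line.

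Of 39 tested chemokines, cytokines and inflammatory mediators, 4 were higher and 16 lower, with a median of −0.53; the higher count was 2 without control replicate 2 and 11 without control replicate 1. Lifr, the receptor for leukemia inhibitory factor, rose by 1.99 from 39.96, 41.0 and 43.5 CPM to 149, 167 and 179 CPM. Il1rl1, the receptor for interleukin 33, fell by 3.85 on the log2 scale from 38.9, 44.9 and 40.3 CPM to 2.42, 3.56 and 2.61 CPM. Guidance ligands and receptors gave 19 higher and 25 lower of 72 tested, with a median of 0.02. These were 26.4% and 34.7%, beside 17.9% and 20.1% of all tested genes. The members named next rose, although more members of the list were lower. Semaphorins, which repel or attract migrating cells and axons, included Sema6a and Sema3d, which rose by 4.38 and 4.32, with Sema6a at 2.27, 1.78 and 3.74 CPM in control and 50.4, 55.2 and 57.6 CPM in mutant cells, and Sema3d at 3.63, 2.72 and 6.43 CPM and 73.9, 89.4 and 91.9 CPM.

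Immediate early genes, the first to respond to growth signals, gave 5 higher and 10 lower of 23 tested, with a median of 0.00. The zinc finger factors of the Egr family fell together: Egr1 from 266, 202 and 236 CPM to 41.2, 33.9 and 34.8 CPM, by 2.68 on the log2 scale (SE 0.43, adjusted p = 0.000425, edgeR). Egr2 fell by 4.59 on the log2 scale from 52.0, 41.5 and 57.0 CPM to 2.11, 2.11 and 2.03 CPM, and Egr3 fell by 4.27 on the log2 scale from 86.5, 69.2 and 79.5 CPM to 4.198, 3.92 and 4.05 CPM. Fos, a subunit of the AP-1 factor, fell by 3.25 on the log2 scale from 16.3, 16.8 and 15.9 CPM to 2.06, 1.49 and 1.62 CPM. Other members of the list rose. Klf4 rose by 2.48 from 85.1, 82.4 and 104 CPM to 461, 494 and 559 CPM, and Myc, a driver of growth and ribosome production, rose by 1.43 from 54.2, 54.9 and 54.2 CPM to 149, 151 and 140.1 CPM.

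A window of 300 bases around the RefSeq start of Egr2 is printed because its fall was the largest of the 3 Egr genes named. Capitals mark the CArG box, the site type bound by SRF, found on either strand in 1.63% of 32851 promoter windows of 27025 genes and in 4 of 23 windows of the immediate early genes (17.4%), all 4 of them windows of Egr2. Of the windows of contractile and SRF target genes, 10 of 35 (28.6%) held it.
Egr2, chr10:67537316-67537615, plus strand, GRCm38.p6: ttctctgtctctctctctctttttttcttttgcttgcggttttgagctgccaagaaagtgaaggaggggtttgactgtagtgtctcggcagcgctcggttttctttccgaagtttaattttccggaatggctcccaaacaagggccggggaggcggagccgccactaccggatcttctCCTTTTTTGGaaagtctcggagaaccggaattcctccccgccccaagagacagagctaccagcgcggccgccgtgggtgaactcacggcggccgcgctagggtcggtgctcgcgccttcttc

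Genes induced by the kinase ERK that feed back on it gave 1 higher and 11 lower of 20 tested, with a median of −0.91. Dusp6, a phosphatase specific for ERK, fell by 2.01 on the log2 scale from 67.7, 51.0 and 64.8 CPM to 16.9, 15.7 and 12.9 CPM. Errfi1, a feedback inhibitor of the EGF receptor, fell by 1.87 on the log2 scale from 55.7, 48.3 and 56.9 CPM to 14.4, 14.8 and 14.98 CPM. Spry4, of the Sprouty family of feedback inhibitors, was low in both lines, at 4.59, 4.52 and 4.50 CPM in control and 2.42, 2.34 and 2.27 CPM in mutant cells.

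Targets of the mechanosensitive coactivators YAP and TAZ were lower in 13 of 26 tested members and higher in 1, with a median of −0.40. Ccn1, a matricellular protein induced by stretch and serum, fell by 1.56 on the log2 scale from 357, 278 and 302 CPM to 114, 109 and 94.4 CPM, and Ccn2, connective tissue growth factor, fell by 1.08 on the log2 scale from 54.9, 45.6 and 44.2 CPM to 25.5, 24.2 and 18.7 CPM. F3, tissue factor of blood clotting, fell by 3.69 on the log2 scale from 109.8, 114 and 101 CPM to 8.85, 8.79 and 7.63 CPM. Of the promoter windows of these genes 14 of 24 (58.3%) held GGAATG, the motif of the TEAD partners of YAP, on either strand, beside 14.7% of all windows.

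Ossification genes gave 18 higher and 14 lower of 38 tested, with a median of 0.32. The osteoblast transcription factors Sp7 and Runx2 were higher, Sp7 from 45.7, 39.5 and 54.3 CPM to 572, 592 and 624 CPM (log2 fold change 3.68, SE 0.20, adjusted p = 1.85e-07, edgeR), and Runx2 by 0.78 from 249.97, 218 and 259 CPM to 391.8, 431 and 423 CPM. Alpl, Phospho1 and Smpd3 encode enzymes that act in mineral formation. Alpl, alkaline phosphatase, was at 20.99, 24.9 and 49.7 CPM in control and 968, 968 and 1021 CPM in mutant cells, and Phospho1 at 23.7, 25.0 and 49.2 CPM and 899, 918 and 1061 CPM. Smpd3, a sphingomyelinase required for mineralization, rose by 5.61 from 11.1, 6.48 and 33.9 CPM to 759, 833 and 927 CPM. Control replicate 3 was the highest control library for each of these 5 genes, and no control library reached the lowest mutant one.

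Enpp1, Ank, Spp1 and Dmp1 were among the 14 lower members. Enpp1, which makes the mineral inhibitor pyrophosphate, fell by 3.84 on the log2 scale from 75.2, 45.0 and 76.3 CPM to 3.66, 4.53 and 5.52 CPM, and Ank, which carries pyrophosphate out of the cell, fell by 1.83 on the log2 scale from 417, 369 and 455 CPM to 119, 112 and 119 CPM. Spp1, osteopontin, fell by 3.27 on the log2 scale from 421, 488 and 379.7 CPM to 35.2, 47.7 and 50.7 CPM. Dmp1, a matrix protein of osteocytes, fell by 4.36 on the log2 scale from 12.3, 12.4 and 16.7 CPM to 0.904, 0.766 and 0.351 CPM. Bglap, osteocalcin of mature osteoblasts, averaged 62.3 ± 13.3 CPM in control and 92.5 ± 4.33 CPM in mutant cells (SD, n = 3 each) and did not pass the test (adjusted p = 0.377, edgeR). Pth1r, the parathyroid hormone receptor of bone cells, rose by 2.56 and was at 73.4, 95.2 and 86.9 CPM in control and 501, 481 and 529 CPM in mutant cells. The decoy receptor Tnfrsf11b, osteoprotegerin, rose by 3.72 from 10.4, 11.2 and 15.3 CPM to 125, 160.5 and 202 CPM.

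Cartilage genes gave 5 higher and 7 lower of 23 tested (3 lower on the FPKM scale with a pseudocount of 1), with a median of −0.55. Sox6, a partner of Sox9, rose by 3.72 from 1.29, 2.15 and 0.954 CPM to 18.3, 19.9 and 19.6 CPM, whereas Sox9 fell by 0.55 on the log2 scale. Cilp2, a protein of articular cartilage matrix, fell by 3.74 on the log2 scale from 20.1, 21.5 and 19.8 CPM to 1.44, 2.07 and 1.09 CPM. Genes of tendon and perichondrium were mostly lower, 15 of 27 tested against 3 higher, with a median of −1.20. Aspn, asporin of perichondrium and tendon, fell by 2.35 on the log2 scale from 1827, 2749.9 and 2119.5 CPM to 491, 485 and 335 CPM. Ly6a, a surface antigen of mesenchymal progenitors, rose by 3.19 from 4.33, 4.89 and 4.72 CPM to 46.2, 39.7 and 41.2 CPM.

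Transcription factors of jaw and tooth mesenchyme gave 14 higher and 23 lower of 54 tested, with a median of −0.46. Barx1, a homeobox factor of molar mesenchyme and joints, was at 64.4, 103 and 63.1 CPM in control and 1.81, 2.12 and 1.94 CPM in mutant cells, and fell by 5.30 on the log2 scale (SE 0.35, adjusted p = 6.09e-07, edgeR). Lhx8, a LIM homeobox factor of the oral mesenchyme, was nearly constant within each line, at 40.7, 39.5 and 41.9 CPM in control and 1.27, 1.26 and 1.35 CPM in mutant cells, and fell by 4.97 on the log2 scale. Tbx3, a T-box factor, fell by 3.26 on the log2 scale from 132, 99.1 and 109 CPM to 11.3, 11.8 and 12.6 CPM. Dlx3, Foxd1 and Foxq1 were higher in every mutant library. Dlx3, a distal-less homeobox factor of teeth and bone, rose by 5.16 from 1.04, 0.812 and 1.82 CPM to 40.5, 39.5 and 51.8 CPM, and the forkhead factors Foxd1 and Foxq1 rose by 4.195 and 4.44, from 0.306, 0.636 and 1.80 CPM to 17.9, 15.1 and 17.6 CPM and from 0.236, 0.477 and 1.07 CPM to 12.7, 13.8 and 12.3 CPM.

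Genes of ribosome biogenesis formed the most one-sided list. Of 44 tested members 42 were higher and none lower in the mutant line, with a median log2 fold change of 1.11. Polr1a, the large subunit of RNA polymerase I, which makes ribosomal RNA, was at 44.1, 30.01 and 47.0 CPM in control and 119.6, 129.8 and 126 CPM in mutant cells (log2 fold change 1.63, SE 0.20, adjusted p = 6.26e-05, edgeR). Rrn3, its initiation factor, rose by 1.34 from 48.6, 49.99 and 53.8 CPM to 127, 127 and 132 CPM. Ddx10, a helicase of the small subunit, rose by 1.32 from 18.5, 17.1 and 19.8 CPM to 46.6, 45.2 and 46.0 CPM, and Ebna1bp2, a large subunit factor, rose by 1.94 from 36.2, 45.8 and 40.4 CPM to 157, 154 and 157 CPM. Nucleolin and fibrillarin, major proteins of the nucleolus, rose less, with Ncl at 394, 429.5 and 415 CPM in control and 658, 674 and 667 CPM in mutant cells, and Fbl at 47.9, 56.3 and 50.1 CPM and 97.1, 92.2 and 89.3 CPM. The members that did not pass were Npm1, nucleophosmin (log2 fold change 0.34), and Nop10 (0.24). The E-box CACGTG, a palindrome bound by MYC among others and searched for after the data had been seen, was in 10 of 43 windows of these genes (23.3%) and in 7.15% of all windows.

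Of 37 tested mitosis genes 26 were higher and none lower, with a median of 1.53. The higher count was 13 to 18 when 1 starvation library was left out (13 without control replicate 2), 17 with the replicate number as a block, 9 with limma-trend on log2(FPKM + 1) of all genes, and 37 both without control serum replicate 1 and with the 6 serum-free libraries fitted alone. Of 40 tested genes of DNA replication 1 was higher and 3 lower, with a median of 0.15, and these counts rose to 12 and 8 without control serum replicate 1 and to 9 and 6 with the 6 serum-free libraries alone. Cdc20, the activator of the anaphase-promoting complex, was at 15.5, 12.7 and 12.7 CPM in control and 112, 111 and 107 CPM in mutant cells (log2 fold change 3.01, SE 0.52, adjusted p = 0.000692, edgeR). Kif2c, a kinesin that dismantles microtubules at centromeres, rose by 3.01 from 7.90, 4.26 and 4.92 CPM to 46.0, 44.9 and 46.5 CPM. Mki67, the Ki-67 antigen of cycling cells, was at 25.5, 16.8 and 16.3 CPM in control and 44.2, 54.9 and 52.3 CPM in mutant cells without overlap, but did not pass the test (adjusted p = 0.0617, edgeR). On the replication side, Pcna, the sliding clamp of DNA polymerase, was at 105, 111 and 94.2 CPM in control and 111, 107 and 104 CPM in mutant cells, and the groups overlapped. Rrm1, the large subunit of ribonucleotide reductase, fell by 1.16 on the log2 scale from 145, 121 and 144 CPM to 64.5, 63.8 and 55.0 CPM.

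The promoter window of Cdc20 is printed as that of a mitotic gene that rose. Capitals mark CCAAT, bound by NF-Y, and TTTGAA, the core of the cell cycle homology region, the latter searched for after the data had been seen; the motifs share no bases. CCAAT was on either strand in 25 of 32 windows of mitosis genes (78.1%) and in 37.4% of all windows, and TTTGAA in 24 of 32 (75.0%) and in 17.9%.
Cdc20, chr4:118437294-118437593, minus strand, GRCm38.p6: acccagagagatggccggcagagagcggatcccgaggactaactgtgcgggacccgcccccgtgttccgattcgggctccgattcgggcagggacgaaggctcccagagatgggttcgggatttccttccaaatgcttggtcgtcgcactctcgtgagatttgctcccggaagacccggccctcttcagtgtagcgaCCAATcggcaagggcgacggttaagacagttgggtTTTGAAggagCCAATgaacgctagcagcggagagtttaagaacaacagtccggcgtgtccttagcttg

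Genes of G1 control and p53 targets gave 7 higher and 10 lower of 36 tested, with a median of −0.06. These were 19.4% and 27.8%, beside 17.9% and 20.1% of all tested genes. Ccnd1, cyclin D1, rose by 1.08 from 383, 345 and 394 CPM to 809.9, 790.3 and 769.9 CPM. Inhibitors of cyclin-dependent kinases moved apart, with Cdkn1a at 236, 308 and 274 CPM in control and 588, 580.3 and 657 CPM in mutant cells, and Cdkn1b at 114, 107 and 109 CPM and 62.9, 63.5 and 59.2 CPM. Sesn1, a sestrin that restrains the growth kinase mTORC1, fell by 2.10 on the log2 scale from 245, 226 and 251 CPM to 58.5, 53.8 and 56.3 CPM. Genes of FOXO factors, quiescence and nutrient restriction gave 7 higher and 12 lower of 28 tested (4 higher without NG2|EDmut replicate 3), with Pdk4, a kinase that holds back pyruvate oxidation, at 40.4, 29.1 and 36.7 CPM in control and 8.93, 10.2 and 6.95 CPM in mutant cells.

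**Figure D3:**
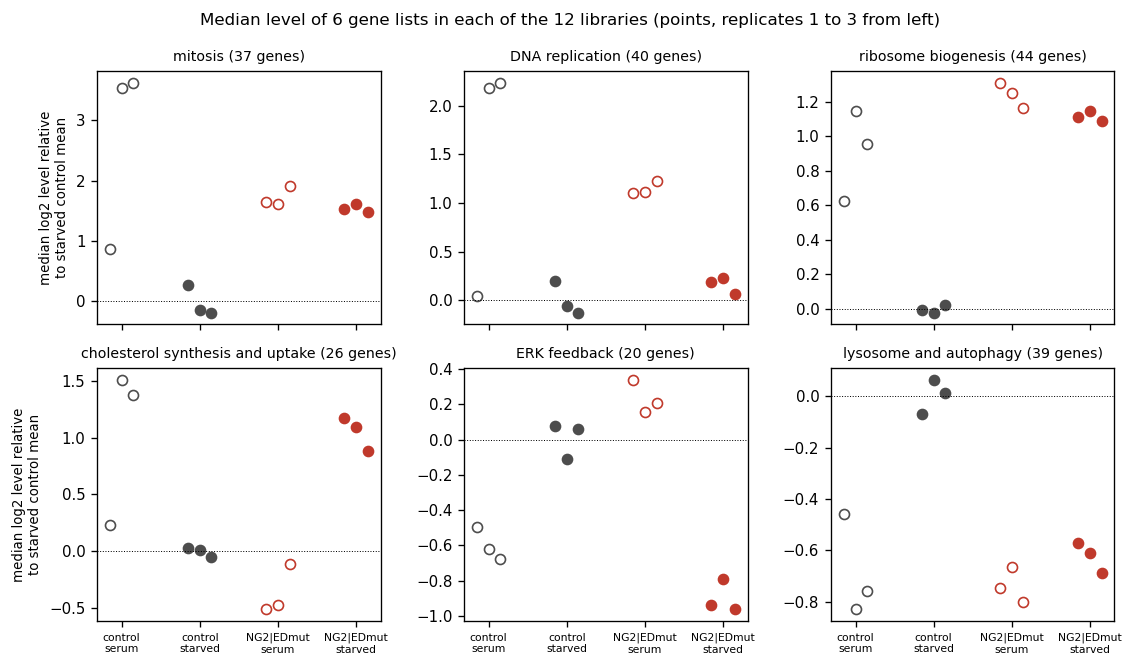
Median log2 level of the tested members of 6 gene lists in each of the 12 libraries, relative to the mean of the starved control libraries; open points are libraries with serum and filled points serum starvation, grey control and red NG2|EDmut, replicates 1 to 3 from the left. Under starvation the mutant libraries lie at 1.48 to 1.62 for mitosis and at 0.07 to 0.23 for DNA replication, and control serum replicate 1 lies apart from its group.

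Transcripts of many lipid synthesis genes were higher in the starved mutant cells, and lipids themselves were not measured. Of 26 tested genes of cholesterol synthesis and uptake 20 were higher and none lower (15 higher without control replicate 1), with a median of 1.05. Hmgcs1, an early enzyme of the pathway, was at 127, 111 and 117 CPM in control and 353, 369 and 336 CPM in mutant cells (log2 fold change 1.57, SE 0.27, adjusted p = 0.000714, edgeR). Sqle, squalene epoxidase of a later step, rose by 1.54 from 78.8, 85.9 and 80.4 CPM to 246, 239 and 225 CPM. Srebf2, the factor that switches these genes on when sterols are low, rose by 0.68 from 249, 217 and 264 CPM to 394, 395 and 378 CPM. Genes of the opposing export program gave 1 higher and 4 lower of 13 tested (38.5% called, beside 38.0% of all tested genes). Abca1, the main cholesterol exporter, fell by 2.72 on the log2 scale from 10.3, 7.12 and 11.8 CPM to 1.38, 1.60 and 1.44 CPM.

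Fatty acid synthesis gave 12 higher and 1 lower of 20 tested, with a median of 0.58. Me1, the malic enzyme that supplies NADPH, rose by 2.31 from 139, 146 and 165 CPM to 706, 719 and 804 CPM, and Scd1, a desaturase, rose by 1.87 from 117, 90.8 and 118 CPM to 374, 401 and 417 CPM. Fasn, fatty acid synthase, was at 256, 149 and 234 CPM in control and 249, 273 and 250.1 CPM in mutant cells, and the groups overlapped. The window of Hmgcs1 is printed because its pathway was called in 1 direction. Capitals mark CACCCCAC, the core of a sterol response element, and CCAAT, each on either strand, which share no bases here. CACCCCAC was in 2 of 21 windows of cholesterol genes (9.52%) and in 2.87% of all windows. It was not particular to this list, with 4 of 35 windows of contractile and SRF target genes (11.4%) and 2 of 24 of YAP target genes (8.33%). CCAAT was in 17 of 21 windows of cholesterol genes (81.0%) and in 37.4% of all windows.
Hmgcs1, chr13:119690101-119690400, plus strand, GRCm38.p6: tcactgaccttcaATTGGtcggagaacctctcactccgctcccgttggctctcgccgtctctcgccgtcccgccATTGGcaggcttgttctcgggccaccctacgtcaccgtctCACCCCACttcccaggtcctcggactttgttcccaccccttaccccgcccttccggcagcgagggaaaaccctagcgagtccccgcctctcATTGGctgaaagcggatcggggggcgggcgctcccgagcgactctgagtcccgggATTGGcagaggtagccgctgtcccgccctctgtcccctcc

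Genes of amino acid supply and the unfolded protein response gave 24 higher and 1 lower of 39 tested, with a median of 0.71. Atf4, the transcription factor of this response, rose by 0.85 from 324, 393 and 341 CPM to 649, 623 and 634 CPM. Its targets in serine synthesis rose too, Psat1 by 1.57 from 107, 122 and 125 CPM to 361, 347 and 342 CPM and Psph by 1.70 from 24.0, 30.6 and 29.3 CPM to 93.8, 85.4 and 92.9 CPM. Slc7a3, a carrier of cationic amino acids, rose by 2.63 from 4.48, 3.48 and 3.29 CPM to 21.5, 22.8 and 25.5 CPM. In glycolysis and hypoxia 12 of 33 tested members were higher and 7 lower, with the glucose transporter Slc2a1 at 35.8, 33.2 and 35.8 CPM in control and 102, 98.5 and 100.5 CPM in mutant cells and the enzyme gene Aldoa at 747 ± 66.0 and 689 ± 44.6 CPM (SD, n = 3 each). Oxidative stress genes gave 14 higher and 13 lower of 44 tested (8 lower without control replicate 2). Gpx3, the secreted glutathione peroxidase, fell by 4.54 on the log2 scale from 556, 908 and 582 CPM to 39.3, 26.5 and 22.2 CPM, and Slc7a11, which imports cystine for glutathione, rose by 2.58 from 6.38, 5.55 and 8.29 CPM to 34.0, 42.3 and 45.1 CPM.

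Lysosome and autophagy genes were lower in 25 of 39 tested members and higher in 1, with a median of −0.61. Ctsb, cathepsin B, was at 1421, 1579 and 1531 CPM in control and 625, 579 and 535 CPM in mutant cells, and fell by 1.38 on the log2 scale (SE 0.13, adjusted p = 6.85e-06, edgeR). Hexa, a hexosaminidase subunit, fell by 1.48 on the log2 scale from 566, 609.8 and 556 CPM to 224, 200.4 and 197 CPM. Lamp1, a protein of the lysosomal membrane, fell by 0.82 on the log2 scale from 1899, 2137 and 2037 CPM to 1228, 1122 and 1096 CPM. The motif CACGTG, which the lysosomal regulator TFEB also binds, was in 11 of 38 windows of the list (28.9%) and in 7.15% of all windows. It was searched for after the data had been seen. It was not particular to this list, with 23.3% of windows of ribosome biogenesis genes, which were mostly higher.

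Interferon response genes were lower in 25 of 40 tested members and higher in 2, with a median of −0.85, and 14 were lower on the FPKM scale with a pseudocount of 0.1. H2-T23, a nonclassical antigen-presenting molecule, fell by 2.56 on the log2 scale from 70.3, 81.7 and 75.7 CPM to 14.7, 11.4 and 12.5 CPM, and Irf1, an interferon regulatory factor, fell by 1.33 on the log2 scale from 41.5, 38.6 and 36.9 CPM to 17.3, 14.5 and 14.7 CPM. Retinoid metabolism gave 1 higher and 14 lower of 22 tested, with a median of −1.07. Crabp1, which binds retinoic acid in the cytoplasm, fell by 5.13 on the log2 scale from 8.29, 11.1 and 11.1 CPM to 0.248, 0.215 and 0.403 CPM, and Cyp26b1, which degrades it, fell by 2.82 on the log2 scale from 38.3, 21.5 and 28.7 CPM to 3.80, 4.59 and 4.09 CPM. The synthesis, carriage and breakdown of retinoic acid were thus each represented among the lower genes. Imprinted growth genes gave 1 higher and 10 lower of 25 tested, with Plagl1, a zinc finger factor of fetal growth, at 239.8, 245 and 254 CPM in control and 36.7, 39.4 and 34.9 CPM in mutant cells.

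The contrast between the lines was then set beside the same contrast with serum, whose group means come from other libraries but whose spread comes from the same fit. With serum 5894 genes passed the test (31.5% of those tested), 2873 higher and 3021 lower. In both conditions 4118 genes were called, 3996 of them in the same direction, which is 56.19% of the genes called under starvation and 67.8% of those called with serum. Over all tested genes the contrasts correlated with Pearson's r of 0.66 and Spearman's coefficient of 0.64; the points are genes, which are not independent, and all libraries share 1 fit. The difference between the contrasts itself passed the test for 821 genes (4.39%), 380 (2.03%) with the mutant line relatively higher under starvation and 441 (2.36%) relatively lower. Control serum replicate 1 differed from both other control libraries with serum, and without it 3901 genes passed. Of the 2993 genes called under starvation and not with serum, 343 passed the test of the difference. Because the basal medium also changed, these differences cannot be assigned to serum alone.

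**Figure D4:**
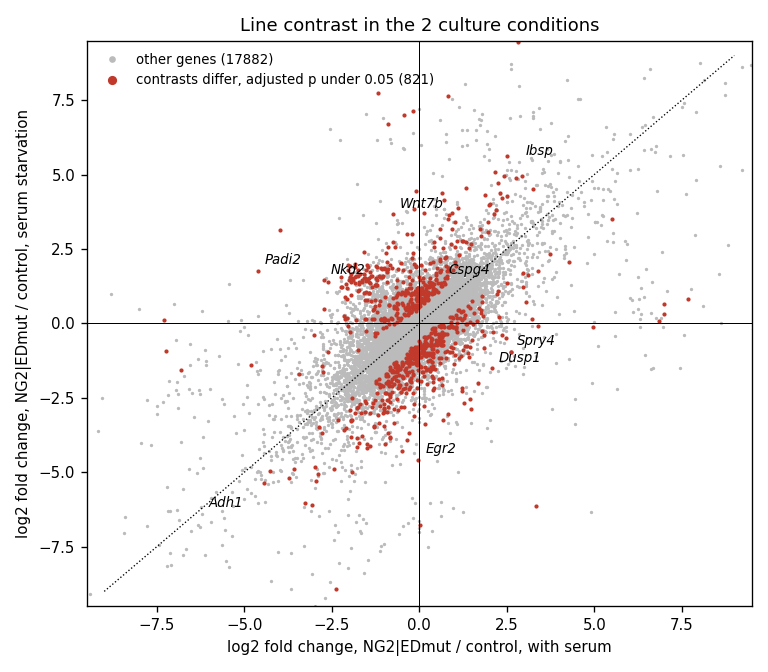
Log2 fold change of NG2|EDmut against control cells with serum (horizontal) and under serum starvation (vertical), 1 point per tested gene; red points are the 821 genes whose contrasts differed, the dotted line marks equal contrasts, and 12 genes lie beyond the axes. Ibsp and Adh1 lie on the same side in both conditions, whereas Egr2, Dusp1 and Spry4 lie far below the line and Wnt7b, Nkd2 and Padi2 far above it.

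Several genes of matrix and jaw patterning were lower in the mutant line in both conditions. Col4a1 had a log2 fold change of −3.62 with serum, Barx1 of −5.15, Lhx8 of −4.26 and Ptn of −4.93, beside −4.54, −5.30, −4.97 and −5.56 under starvation. Hmgcs1 changed sides. It was lower in the mutant line by 1.98 on the log2 scale with serum (log2 fold change −1.98) and higher by 1.57 without it. For cholesterol synthesis and uptake 24 of 26 members passed the test of the difference with the starvation contrast above the serum contrast, and 26 of 37 mitosis genes and 20 of 44 ribosome biogenesis genes did so, beside 2.03% of all tested genes. These counts were 25, 37 and 40 without control serum replicate 1. In that control library the median level of mitosis genes, relative to the starved control mean, was 0.86 on the log2 scale, beside 3.53 and 3.62 in the other control libraries with serum.

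ERK feedback and immediate early genes stood on the other side. Of 20 ERK feedback genes 13 passed the test with the starvation contrast below the serum contrast, and of 23 immediate early genes 8 did, beside 2.36% of all tested genes. Egr1 had a log2 fold change of 1.27 with serum and −2.68 under starvation, a difference of −3.95, and Dusp6 one of 1.67 with serum and −2.01 under starvation, a difference of −3.68. Spry4 went from 2.61 with serum to −0.95 under starvation. In all, 122 genes were called in opposite directions, 72 of them higher under starvation and lower with serum. The test of the difference called all 122, but opposite calls in the same fit made that nearly certain, so it adds little.

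The called genes were not spread evenly over the chromosomes. On the X chromosome 37 of 626 tested genes were higher and 235 lower (37.5% lower, beside 20.1% of all tested genes), with a median log2 fold change of −0.45 under starvation and −0.50 with serum. Chromosome 4 had the highest median under starvation, though not with serum, with 331 of 1104 tested genes higher and 182 lower and medians of 0.24 and 0.18. None of the 11 tested Y-linked genes was higher, and 7 were lower. Ddx3y, a Y-linked RNA helicase, fell by 4.21 on the log2 scale from 28.1, 23.3 and 26.3 CPM to 1.22, 1.42 and 1.55 CPM, and Kdm5d, a Y-linked histone demethylase, fell by 4.10 on the log2 scale from 18.4, 11.6 and 14.0 CPM to 0.685, 0.779 and 1.09 CPM.

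**Figure D5:**
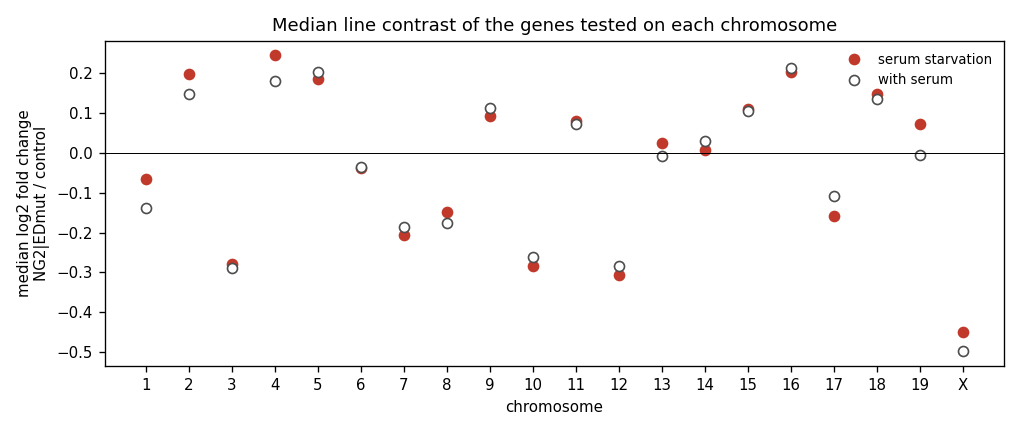
Median log2 fold change of NG2|EDmut against control cells over the tested genes of each chromosome, under serum starvation (filled) and with serum (open). The X chromosome lies at −0.45 and −0.50 and chromosome 12 at −0.31 and −0.28, whereas chromosomes 4 and 16 lie at 0.24 and 0.20 under starvation.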

How the data were processed

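Libraries of poly(A) RNA were prepared with a stranded kit and read on an Illumina NovaSeq instrument. The authors used HISAT2 for mapping and StringTie for assembly and quantification, and the submitters' processing notes also name FastQC and edgeR. The sources used here do not give tool versions, build, read length or the strand setting of counting; gene coordinates fit GRCm38. An estimated count per gene and library was deposited by the authors, which comes from StringTie coverage, is already whole, and is not a number of reads. The deposited FPKM values derive from the same coverage. Overlapping and antisense genes are uncertain, as are genes with near-identical copies.

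Estimated counts of all 12 libraries were fitted in edgeR 4.0.16 (R 4.3.3) with filterByExpr, TMM, 1 mean per group and the quasi-likelihood test (8 residual and 3.91 prior degrees of freedom). Genes were called at a Benjamini-Hochberg adjusted p under 0.05 over all genes tested. The contrasts were NG2|EDmut against control under starvation, the same with serum, and their difference. Standard errors come from that fit. All 12 count columns were mapped to libraries by name. No pair of libraries within either starvation group was a duplicate, and the scripts were tested on simulated data.

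Genes named are Cspg4, the 15 steepest rises and 15 steepest falls among called genes without overlap and with a mean of at least 10 CPM in the higher group, the 10 largest differences in level each way without ribosomal RNA, up to 4 called members of each list in each direction with the smallest adjusted p, and the 8 largest differences of the contrasts each way with at least 10 CPM in the highest group. Not all genes the rule admits are printed, and the following were named outside it after their values were seen, mostly to complete a complex, pair or list: Col6a2, Col6a3, Col1a1, Col1a2, Itgb1, Itga8, Pdgfra, Mmp14, Igf1r, Ctnnb1, Axin2, Ccn1, Ccn2, Runx2, Spp1, Dmp1, Bglap, Tnfrsf11b, Acta2, Polr1a, Rrn3, Ebna1bp2, Ncl, Fbl, Npm1, Nop10, Mki67, Pcna, Sqle, Srebf2, Fasn, Atf4, Lamp1, Ddx3y, Kdm5d, Xist and the cell type markers. Single-gene alternatives were run for the genes of the rule. Some results are not reported here. Members and lists were chosen with earlier results of these data known, and no set test was run. Promoter windows come from RefSeq (GRCm38.p6) and were matched by symbol. Windows were found for 18 of 26 cholesterol, 30 of 37 mitosis, 39 of 44 ribosome biogenesis, 31 of 39 lysosome, 19 of 26 YAP, 17 of 23 immediate early and 27 of 30 contractile genes. Alternatives were DESeq2 1.42.0, RLE size factors, other filters, a fold threshold, fewer libraries, a block for the replicate number, limma-trend (limma 3.58.1) on log2 FPKM, a rescaling of the estimated counts, and leaving ribosomal RNA out.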

Additional observations from a re-analysis of the deposited data

Results flagged for a closer look

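Serum and basal medium changed together between the culture conditions, so their effects cannot be told apart. By edgeR's test of the difference of the contrasts, the contrast between the lines changed between these conditions for 821 genes. Of these, 111 are among the 330 genes that the naming rule selected. That rule took the 8 largest differences each way by this same test, and all 330 genes were called under starvation. The count of 111 therefore follows in part from the choice. With the mutant line relatively higher under starvation were 26 of 37 mitosis, 24 of 26 cholesterol, 20 of 44 ribosome biogenesis and 10 of 51 WNT genes. The share over all tested genes was 2.03%. Without control serum replicate 1 these counts were 37, 25, 40 and 15. With the mutant line relatively lower were 13 of 20 ERK feedback and 8 of 23 immediate early genes, beside 2.36% of all tested genes. Without that library these counts were 14 and 12. In the main fit 2 WNT genes and 1 immediate early gene went the other way.

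Padi2, a peptidylarginine deiminase, had the largest positive difference, 6.37 on the log2 scale, with 1.49, 1.61 and 1.23 CPM in control and 4.08, 5.70 and 4.90 CPM in mutant cells under starvation, and its starvation call was lost without control replicate 3. The WNT ligand Wnt7b differed by 4.42 and Nkd2, an inhibitor of Dishevelled, by 4.17. Car3, a carbonic anhydrase, and Npnt, nephronectin, each differed by 3.99. Npnt was at 103, 104 and 106 CPM in starved control cells and at 416, 437 and 359 CPM in starved mutant cells, and was lower in the mutant line with serum. The helicase gene Pif1 differed by 3.98, the sterol pathway gene Idi1 by 3.90 and the ubiquitin ligase gene Neurl1b by 3.82.

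On the other side Egr2 differed by −4.57, the neuronal activity gene Arc by −4.35, Egr1 by −3.95, Fos by −3.92 and Egr3 by −3.79. The ERK phosphatase Dusp6 differed by −3.68, the MAP kinase phosphatase Dusp1 by −3.59 and Spry4 by −3.57. All 16 of these differences also passed the test without control serum replicate 1. That of Neurl1b did not pass with the replicate number as a block, and the starvation calls of Nkd2 and Neurl1b were lost when any single starvation library was left out.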

How the results depend on the processing

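None of the 330 genes of the naming rule reversed its direction under any alternative that gave it a value. Genes named outside the rule were not run. A minimum of 10 counts in every library gave 315 of the 330 a value, and limma-trend on filtered FPKM 311. DESeq2, RLE size factors and the replicate block lost none of their calls for which they gave an adjusted p. No filter on low counts lost 2, limma-trend lost 3 to 11, and the fold threshold lost 39. A minimum of 1 for the absolute log2 fold change left 3432 genes, 1474 higher and 1958 lower. Leaving out any 1 starvation library gave 5481 to 6449 called genes (2616 to 3268 higher, 2865 to 3306 lower) and lost 6 to 11 of 330 named genes. DESeq2 called 7834 genes, the 6 serum-free libraries alone 8345, and no filter on low counts 6387. The difference of the contrasts gave 3901 genes without control serum replicate 1, 1754 with DESeq2 and 443 with the replicate block. Replicate numbers did not pair the libraries: deviations of same-numbered libraries correlated at −0.125, −0.050 and −0.037, and with the replicate number as a block 6596 genes were called under starvation. Chosen after seeing the data, alternatives for the serum contrast called 7657 genes without control serum replicate 1, 6866 with DESeq2 and 5236 with the block. Differences are between 1 clone and 1 clone, so clone and edit cannot be told apart, and low genes are limited by the spread of 3 libraries.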

Other observations

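Clock genes, which set daily rhythms, gave 9 higher and 4 lower of 23 tested (38.0% of all tested genes were called), and 6 higher without control replicate 2. In the main fit 39.1% were higher and 17.4% lower, beside 17.9% and 20.1% of all tested genes. The members named here are mostly lower ones, unlike the list. Arntl, the core activator BMAL1, fell by 1.01 on the log2 scale, from 33.5, 29.1 and 30.1 CPM in starved control to 15.8, 14.8 and 15.3 CPM in starved mutant cells. Npas2, a partner of BMAL1, fell by 2.22 on the log2 scale from 10.5, 10.8 and 8.97 CPM to 1.97, 2.02 and 2.51 CPM. Nfil3, a repressor of clock output, rose by 1.17 from 18.1, 18.3 and 18.3 CPM to 42.6, 39.2 and 41.5 CPM. Bhlhe41, a repressor of the clock activators, fell by 1.22 on the log2 scale from 56.7, 62.2 and 57.7 CPM to 25.3 CPM in each mutant library.

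Mitochondrial transcripts differed more between the control libraries than between the mutant ones. The cytochrome oxidase gene mt-Co1 was at 14936, 15879.5 and 9349 CPM in starved control and 7790.0, 7748 and 7319 CPM in starved mutant cells, and its call was lost when some single libraries were left out. Xist, the RNA of X inactivation, was at 8.39, 14.0 and 2.88 CPM in starved control and 1.08, 0.255 and 0 CPM in starved mutant cells. Krt8, a keratin of simple epithelia, was at 7.71 CPM in control replicate 1, at 0.212 and 0.132 CPM in the other control libraries, and at 4.47, 7.35 and 7.18 CPM in mutant cells.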
